A study of Mus musculus with 2 samples.

Results

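Transcripts of 8 genes of the MHC class II presentation pathway were followed in immune cells of xenograft tumors after control IgG or anti-CD3L1. The 8 genes, Cd74, H2-Aa, H2-Ab1, H2-Eb1, H2-DMa, H2-DMb1, H2-DMb2 and Ciita, were chosen by symbol, and all 8 were found once among the 32285 genes measured. The cells were isolated with magnetic CD45 beads from subcutaneous tumors of 143B, a human osteosarcoma line, in female nude mice, a strain without a working thymus. The methods give an age of 4 weeks, and 10 mg/kg of human IgG1 isotype control or of anti-CD3L1 every 3 days, 4 times in total. Each group gave 1 droplet library from 3 pooled tumors, with no map from cells to tumors. A difference between the groups is therefore a difference between 2 libraries, with no test, and the treatment and the library cannot be told apart. Every interval below is at 95%, exact, and covers counting error only. The question behind the comparison is whether blocking CD3L1 changes the macrophages of a tumor, and class II transcripts are part of what a macrophage uses to present antigen.

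The deposited tables held 74850604 UMIs for control IgG and 108246719 for anti-CD3L1. Filtering left 8557 and 11269 barcodes, respectively, with a median of 5526 and 8267 UMIs. A UMI marks 1 captured RNA molecule, and levels are given as CPM, the UMIs of a gene per 1000000 UMIs of a class of cells. Ptprc, the gene of CD45, had a UMI in 95.1% and 91.1% of the kept barcodes, and 26 barcodes occurred in both libraries. Cells were gated by fixed marker genes that did not include the 8 members, and 344 and 1233 cells lay too near the border between gates to be placed. The mix of classes differed widely: neutrophil-gated cells made up 70.2% of the cells under control IgG and 5.49% under anti-CD3L1, and macrophage-gated cells 8.23% and 39.3%. Neutrophil markers also reached the other gates. At least 3 of the 9 neutrophil markers were detected in 83.0% of macrophage-gated cells under control IgG and in 4.32% under anti-CD3L1, in 94.1% and 13.2% of monocyte-gated cells, and in 91.2% and 3.51% of dendritic-gated cells. The median macrophage-gated cell had 4 and 1 of them, beside 2 and 3 of the 8 monocyte markers. Their part in the class II values was not tested.

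The positions are those of GENCODE M21 on the mouse build GRCm38. H2-DMa (chr17:34119541-34139101), H2-DMb2 (chr17:34143307-34151555), H2-DMb1 (chr17:34153072-34160230), H2-Ab1 (chr17:34257689-34269419) and H2-Eb1 (chr17:34305867-34316674) are on the plus strand, and H2-Aa (chr17:34282744-34287823) is on the minus strand. Ciita (chr16:10480059-10528418) and Cd74 (chr18:60803848-60812652) are on the plus strand.

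MHC class II molecules are pairs of an alpha and a beta chain that carry peptides from the endosome to the cell surface for CD4 T cells. H2-Aa and H2-Ab1 encode the chains of the I-A molecule and H2-Eb1 the beta chain of I-E. Cd74 encodes the invariant chain, which fills the groove of new molecules and guides them to the endosome, and H2-DMa pairs with H2-DMb1 or H2-DMb2 into H2-DM, which exchanges the last piece of the invariant chain for peptide. Ciita encodes the coactivator that switches the whole set on. It binds no DNA itself and is recruited by factors that sit on short boxes of the class II promoters, among them RFX on the X box, CREB on the neighbouring X2 box and NF-Y on the Y box. Dendritic cells and B cells hold the set permanently, whereas monocytes and macrophages raise it with interferon gamma and other signals.

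The promoter stretches are shown because the 8 genes are read as 1 set, and the shared boxes are the visible part of that. RefSeq promoters on GRCm38.p6 were given for 5 of the 8 members, and H2-Ab1, Cd74 and Ciita had no entry. The letters below are the 130 bases before the annotated start of 4 members, 5′ to 3′ on the strand of the gene, and capitals mark matches on either strand to GATTGG (the Y box core), AACNGATG (part of the X box) or TGACGTCA (the CREB site of the X2 box).
H2-Aa: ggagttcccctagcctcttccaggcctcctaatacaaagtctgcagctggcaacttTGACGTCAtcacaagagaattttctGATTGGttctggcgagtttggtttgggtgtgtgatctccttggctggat
H2-Eb1: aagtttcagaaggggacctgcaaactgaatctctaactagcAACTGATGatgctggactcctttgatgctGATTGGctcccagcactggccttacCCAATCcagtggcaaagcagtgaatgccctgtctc
H2-DMb1: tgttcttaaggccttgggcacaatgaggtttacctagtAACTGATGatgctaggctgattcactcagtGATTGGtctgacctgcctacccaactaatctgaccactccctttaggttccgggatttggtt
H2-DMb2: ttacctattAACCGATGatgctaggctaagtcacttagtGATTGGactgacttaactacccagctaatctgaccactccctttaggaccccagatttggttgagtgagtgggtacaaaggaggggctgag

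These windows are chr17:34287824-34287953 for H2-Aa, chr17:34305737-34305866 for H2-Eb1, chr17:34153061-34153190 for H2-DMb1 and chr17:34145119-34145248 for H2-DMb2, all just upstream of the start that RefSeq gives, which for H2-DMb1 and H2-DMb2 lies inside the GENCODE gene. Counted from the start to its first base, a Y box core lay at position -49 in H2-Aa, -60 in H2-Eb1, -62 in H2-DMb1 and -91 in H2-DMb2. The search covered the whole RefSeq entries, which are 300 bases long and begin 250 bases before the start, so they are longer than the stretches printed. Over all 32851 such entries, 16.1% held GATTGG, 2.32% AACNGATG and 1.79% TGACGTCA. An X box part followed on the same strand by a Y box core 20 to 60 bases on was found in 7 of the 32851 entries, and H2-Eb1, H2-DMb1 and H2-DMb2 were 3 of these. Of the 2 entries for H2-DMa, 1 held a Y box core, at position -199, outside the 130 bases nearest the start, and neither held the other motifs. The motifs were chosen with these promoters in view, and a match is a description of letters, not of binding.

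The cDC2 gate had the highest level of each of the 8 members among the gated classes in both libraries, though not always beyond counting error, and the other dendritic gates did not lead for every member. H2-DMb1, at 115.5 CPM in mature dendritic cells under anti-CD3L1, was below the 171 CPM of macrophages, and H2-DMb2, at 144.5 CPM in cDC1, below the 225.6 CPM of B cells. Under control IgG the intervals of cDC2 and cDC1 overlapped for 6 members, H2-Aa (6915 to 7958 and 6486 to 7198 CPM), H2-Ab1, H2-DMa, H2-DMb1, H2-DMb2 and Ciita, and lay apart for Cd74 and H2-Eb1. Under anti-CD3L1 those of cDC2 lay above all other classes for 7 members, and for H2-DMb2 (216.4 to 263.8 CPM) overlapped that of B cells (170.9 to 292.4 CPM). Summed over the 8 members, cDC2-gated cells, conventional dendritic cells of the kind that presents to CD4 T cells, held 35054 CPM under control IgG and 32149 CPM under anti-CD3L1. The cDC1 gate, dendritic cells known for cross-presentation, followed with 30078 and 27193 CPM, and mature dendritic cells, which express Ccr7 and migrate, with 24592 and 24667 CPM. These levels rest on 12, 7 and 15 control IgG cells of the cDC1, cDC2 and mature DC gates, against 212, 148 and 153 anti-CD3L1 cells.

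Below them the order depended on the library. Under anti-CD3L1 it ran from macrophage-gated cells (13689 CPM, interval 13654 to 13724) and B cells (12870 CPM, 12431 to 13320) to monocytes (10328 CPM) and plasmacytoid dendritic cells (pDC, 5364 CPM). Under control IgG it ran from B cells (11028 CPM, 10211 to 11893, 7 cells) and macrophages (7894 CPM) to pDC (6234 CPM, 25 cells) and monocytes (3048 CPM). Monocytes thus stood below pDC in the control IgG library and above them in the anti-CD3L1 library, and neither pair of intervals overlapped.

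Lower levels were found in type 2 innate lymphoid cells (ILC2, 1155 and 3041 CPM), neutrophils (443.5 and 2500 CPM) and NK cells (340.1 and 705.9 CPM). Fibroblast-gated cells had 347.8 CPM (303.4 to 396.7, 36 cells) under anti-CD3L1, the lowest level of the named gates there, and only 2 such cells were found under control IgG. NK cells should lack these molecules, and their values serve here as a background level. In near-empty barcodes, with 10 to 100 UMIs, taken to hold free RNA, the 8 members summed to 2406 CPM under control IgG and 10810 CPM under anti-CD3L1. The near-empty level was 4.49 times as high in the anti-CD3L1 library (interval 4.39 to 4.60). The neutrophil and NK values, each below the near-empty level of its own library, were higher there too. ILC2 also lay below that level in both libraries, and fibroblast-gated cells lay below it under anti-CD3L1. Monocytes and pDC lay above it under control IgG (3048 and 6234 CPM) and below it under anti-CD3L1 (10328 and 5364 CPM). The part of free RNA in the values of these classes was not tested.

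**Figure D1:**
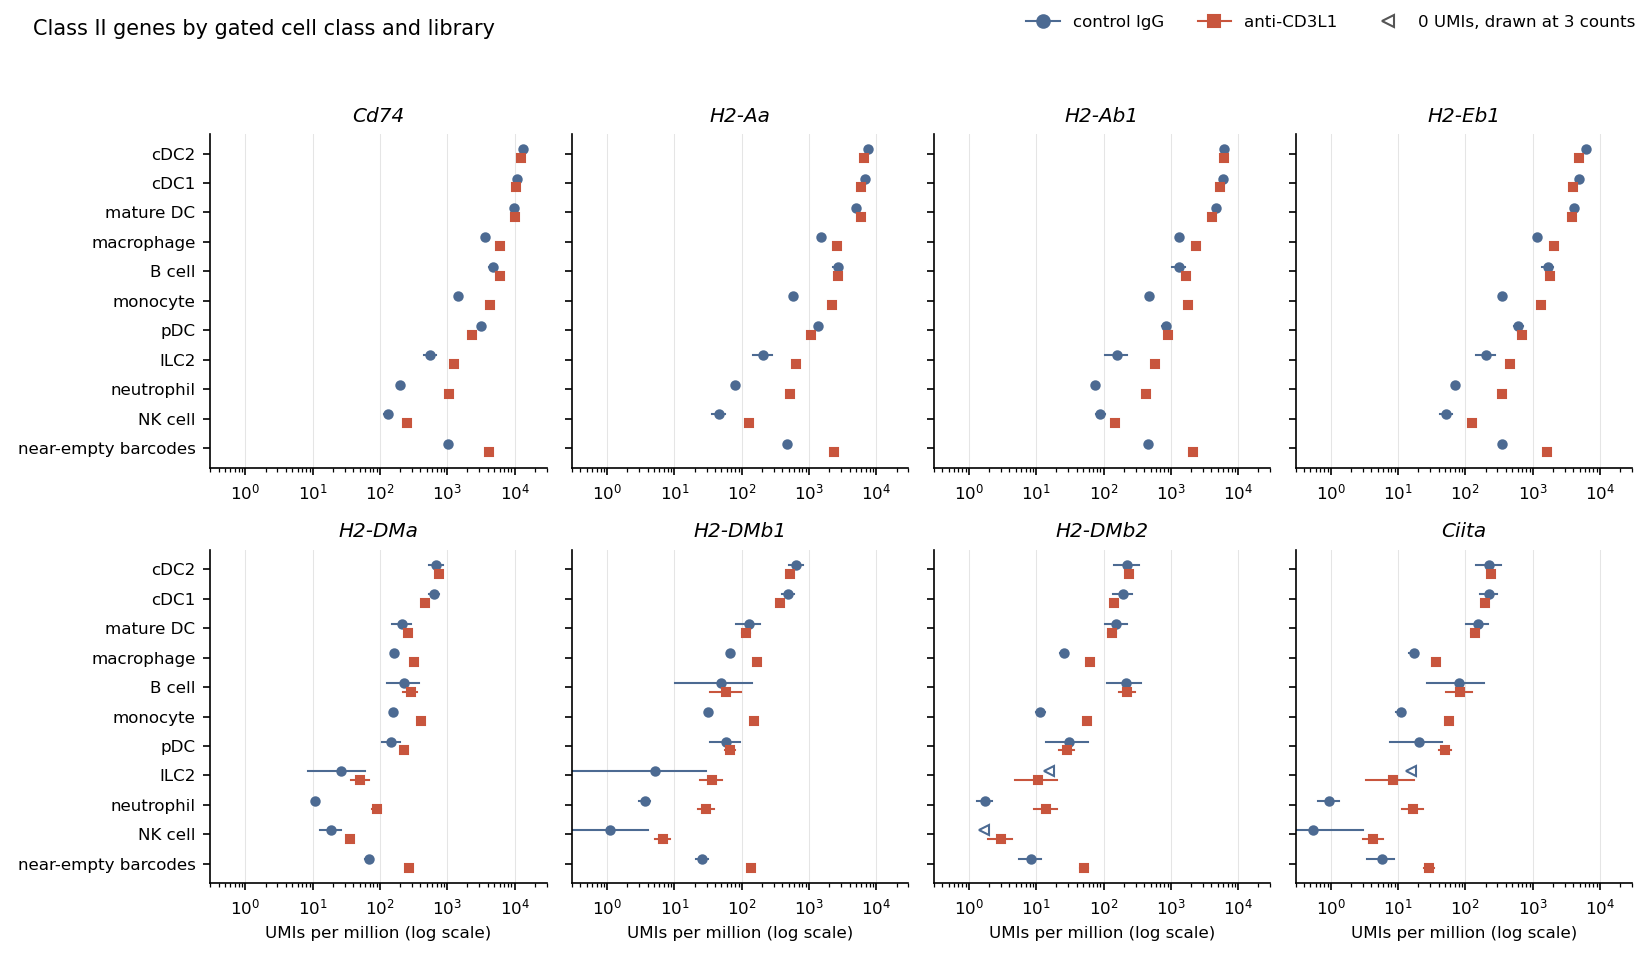
CPM of each of the 8 members (horizontal, log scale) in 10 gated classes and in near-empty barcodes, control IgG as circles and anti-CD3L1 as squares, bars exact Poisson 95% intervals, open triangles classes with 0 UMIs drawn at the level of 3 counts. The cDC2 gate holds the highest level of each member, with the symbols of both libraries close together, while macrophage and monocyte symbols lie apart, with anti-CD3L1 to the right. Anti-CD3L1 also lies to the right in neutrophils, NK cells and near-empty barcodes, and in ILC2 apart from the open triangles.

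In macrophage-gated cells all 8 members were higher under anti-CD3L1, by 1.67 to 2.57 times. Cd74 was at 3611 CPM under control IgG and 6033 CPM under anti-CD3L1, a log2 ratio of 0.74 (interval 0.72 to 0.76). The chains H2-Aa (1500 and 2625 CPM), H2-Ab1 (1330 and 2351 CPM) and H2-Eb1 (1179 and 2089 CPM) had ratios of 0.81, 0.82 and 0.82 on the log2 scale. The chains and their invariant chain thus had nearly the same ratios. The genes of the peptide exchanger had larger ones.

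H2-DMa was at 164.0 CPM under control IgG and 319.9 CPM under anti-CD3L1, a log2 ratio of 0.96 (0.89 to 1.04). H2-DMb1 was at 66.6 and 171 CPM, a ratio of 1.36 (1.25 to 1.48), and H2-DMb2 at 25.7 and 63.3 CPM, a ratio of 1.30 (1.11 to 1.49). Ciita, the member with the fewest UMIs, was at 17.1 and 36.2 CPM, a ratio of 1.08 (0.85 to 1.32) from 164 and 1552 UMIs. H2-DMb1, H2-DMb2 and Ciita were past 2-fold, 3 of 8 members, where 7.74% of the 14548 genes with at least 20 UMIs in these cells were at least 2-fold higher. The median log2 ratio was 0.89 over the members and 0.01 over all genes tested, and 8.92% of all genes tested had a ratio above the members' median.

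In monocyte-gated cells the ratios were larger for every member. Cd74 was at 1454 CPM under control IgG and 4327 CPM under anti-CD3L1 (log2 ratio 1.57, interval 1.55 to 1.59). H2-Aa was at 571.5 and 2159 CPM (1.92), H2-Ab1 at 466.5 and 1831 CPM (1.97) and H2-Eb1 at 346.0 and 1330 CPM (1.94). Here the chains had larger ratios than the invariant chain, and H2-DMa, at 155.1 and 413.5 CPM (1.42), had the smallest.

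The other DM genes and the coactivator led the monocyte gate too. H2-DMb1 was at 31.6 and 152 CPM (log2 ratio 2.27, interval 2.13 to 2.41), H2-DMb2 at 11.45 and 57.8 CPM (2.34, 2.10 to 2.58) and Ciita at 11.04 and 57.7 CPM (2.39, 2.15 to 2.63). All 8 members were past 2-fold, where 11.5% of the 13207 genes tested were at least 2-fold higher and the median gene stood at a log2 ratio of 0.26. In the 3 dendritic gates pooled none of the 8 members was past 2-fold. Of 10552 genes tested there 14% were at least 2-fold higher, and a count of none among 8 is near that share. The log2 ratios of the members ran from -0.22 for H2-Eb1 (4897 and 4203 CPM, interval -0.28 to -0.16) to 0.02 for H2-DMa (482.8 and 489.2 CPM). With 34 control IgG cells in these gates, the interval of Ciita (197.4 and 194.0 CPM) allowed log2 ratios from -0.32 to 0.28. Whether the ratios of the macrophage, monocyte and dendritic gates differ was not tested. Cells with at least 3 markers of another lineage made up 1123 of the 1178 control IgG monocytes and 843 of the 2561 anti-CD3L1 monocytes, and without them the summed log2 ratio of the monocyte gate was 0.84 in place of 1.76.

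**Figure D2:**
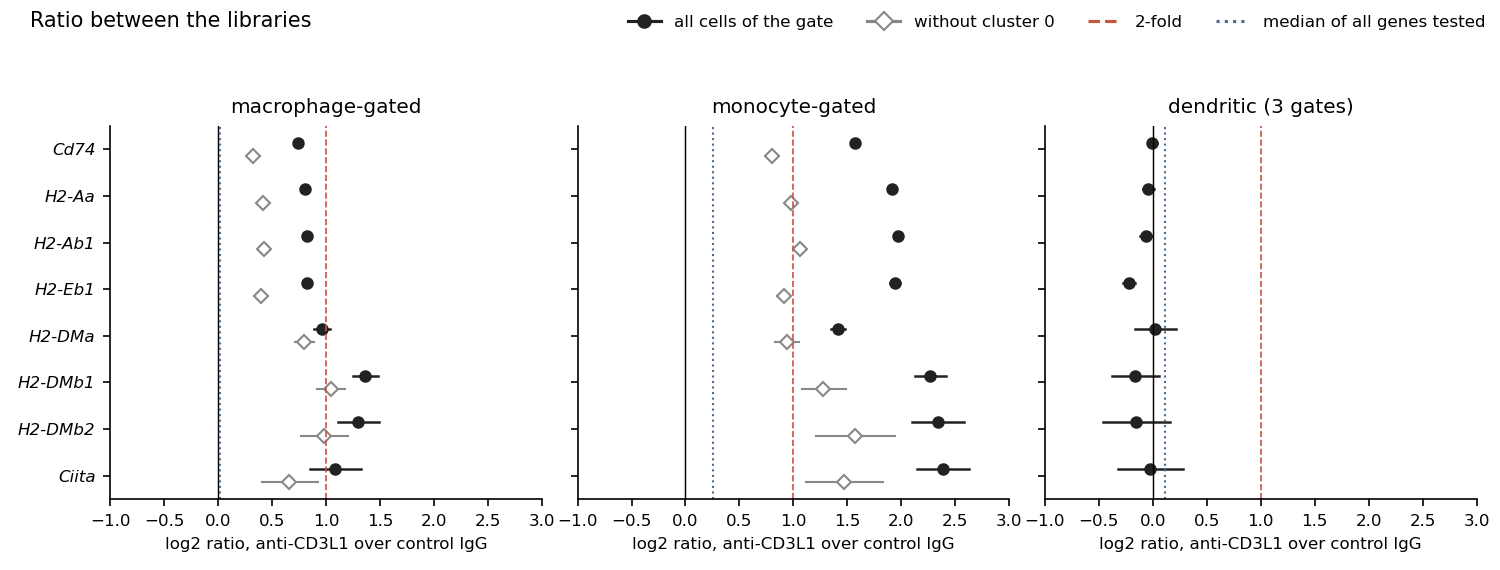
The log2 ratio of CPM, anti-CD3L1 over control IgG (horizontal), for each member in macrophage-gated, monocyte-gated and dendritic-gated cells, filled circles for all cells of the gate and open diamonds without cluster 0 (drawn for the first 2 panels), bars exact binomial 95% intervals, dashed lines 2-fold and dotted lines the median of all genes tested. In the first 2 panels the filled circles of the H2-DMb genes and Ciita lie farthest to the right, and leaving out cluster 0 moves every member toward 0, while the dendritic members lie near 0.

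The members also differed in how many cells held them. With every cell thinned to 1000 UMIs, H2-Aa was detected in 38.4% of macrophage-gated control IgG cells (interval 34.8 to 42.1) and in 67.1% of anti-CD3L1 cells (65.7 to 68.5). In monocyte-gated cells the shares were 17.0% (14.8 to 19.2) and 53.1% (51.1 to 55.0). In NK-gated cells, which should lack the gene, they were 2.01% (0.417 to 5.77) and 8.71% (6.94 to 10.8), and in neutrophil-gated cells 2.85% and 16.5%. Both macrophage shares and both monocyte shares lay above the NK share of the same library. The NK-gated cells had a median of 10908 and 8483 UMIs and the macrophage-gated cells one of 13505 and 9450 before thinning, and 6 and 49 macrophage-gated cells under 1000 UMIs were left out.

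Per 1000 UMIs the median macrophage-gated cell held 2 class II UMIs under control IgG and 10 under anti-CD3L1. Cells with none made up 33.2% and 9.90%, and cells with at least 10 made up 30.4% and 52.3%. The upper end differed less, since the highest-ranking 10% of the cells began at 28 and 31 UMIs. Monocyte-gated cells had a median of 0 and 5 UMIs, with none in 52.9% and 19.0%. Among control IgG monocytes the highest-ranking 10% of cells carried 68.9% of all class II UMIs, against 36.4% under anti-CD3L1. The dendritic gates had a median of 27 UMIs in both libraries.

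**Figure D3:**
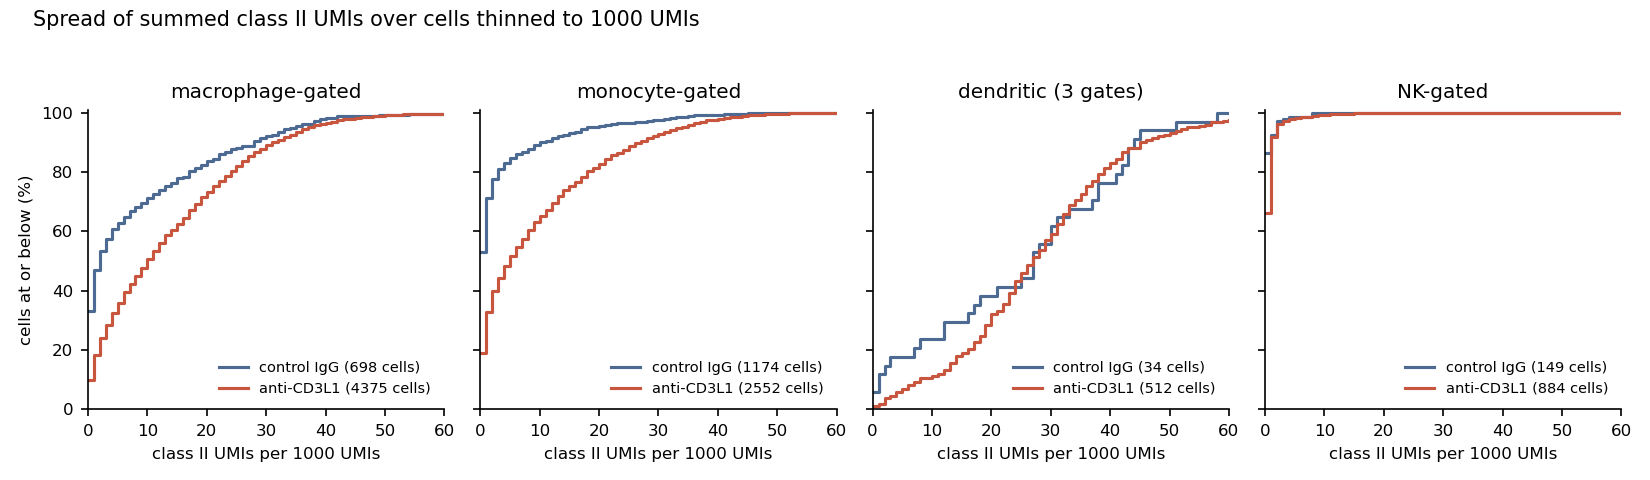
Share of cells (vertical, percent) at or below a given number of class II UMIs per 1000 UMIs (horizontal, 8 members summed, cells thinned to 1000 UMIs), 1 line per library and 1 panel each for the macrophage, monocyte, dendritic and NK gates. The control IgG lines start at 33.2% and 52.9% of cells with none in the macrophage and monocyte panels, above the anti-CD3L1 lines, and in the dendritic panel both lines reach 50% of cells at 27 UMIs.

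Within these gates the 4 most abundant members went together from cell to cell. Over macrophage-gated cells thinned to 1000 UMIs, the Pearson correlation of a member with the sum of the other 7 was 0.75 to 0.84 for Cd74, H2-Aa, H2-Ab1 and H2-Eb1 in both libraries. It was 0.11 to 0.39 for H2-DMa, H2-DMb1, H2-DMb2 and Ciita, whose low counts limit it. The cells of a library share its depth and free RNA.

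The macrophage and monocyte gates did not hold the same cells in both libraries. Clustering without the 8 members, and without aligning the libraries, gave a cluster led by Ctsk, Arg1, Saa3 and Ly6c1 (cluster 0) with 1425 control IgG and 95 anti-CD3L1 cells. Of its cells 63.6% were monocyte-gated, and its 10 leading genes include the monocyte gate markers Vcan and Thbs1 and no marker of the macrophage gate. It held 34.8% of macrophage-gated cells under control IgG and 0.384% under anti-CD3L1, and 76.7% and 2.46% of monocyte-gated cells. Its class II level was low in both libraries, with summed levels of 3554 and 2114 CPM in its macrophage-gated cells and 2291 and 2922 CPM in its monocyte-gated cells. The summed log2 ratio was -0.75 (-0.87 to -0.63) in the former, from 17 anti-CD3L1 cells, and 0.35 (0.27 to 0.43) in the latter. Since cluster 0 is nearly a cluster of 1 library, its cells and the library cannot be told apart. The ratio of the whole macrophage gate therefore sets control IgG cells that partly lie in cluster 0 against anti-CD3L1 cells that almost all lie outside it. Other clusters of mostly monocyte-gated cells, 1, 10 and 11, described below, also held macrophage-gated cells. These numbered 14, 11 and 31 under control IgG and 197, 201 and 206 under anti-CD3L1.

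Most anti-CD3L1 macrophages, 63.5%, were in a cluster led by Fabp5, Trem2, Gpnmb and Apoe (cluster 7), which held 18.3% of control IgG macrophages. There the summed level was 11668 CPM under control IgG (129 cells) and 13626 CPM under anti-CD3L1 (2809 cells), a log2 ratio of 0.22 (0.20 to 0.24). In the cluster led by Ccl8 and the C1q genes (cluster 6) it was 9944 CPM in 209 cells and 13144 CPM in 579 cells, a ratio of 0.40 (0.38 to 0.42). In the cluster led by the interferon-induced genes Rsad2, Ifit2 and Ifit3 (cluster 11) it was 11504 and 12527 CPM, a ratio of 0.12 (0.08 to 0.17). These ratios were smaller than the 0.79 of the whole macrophage gate. H2-Aa was lower under anti-CD3L1 in cluster 11, at 2577 and 2335 CPM (-0.14, -0.24 to -0.04), as the summed level was in cluster 0. The ratio was larger in cluster 14. Its 10 leading genes hold the mast cell genes Cma1, Mcpt4, Cpa3 and Tpsb2 and no marker of the macrophage or monocyte gate. By these genes its cells are not plainly of either class, though the macrophage gate was the most frequent, with 41.8% of them. In its macrophage-gated cells the summed level was 3730 CPM in 47 cells and 9726 CPM in 271 cells, a ratio of 1.38 (1.264 to 1.504).

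In clusters 6 and 7 the H2-DM genes and Ciita had larger ratios than the chains, though for Ciita in cluster 6 not beyond counting error. In cluster 7, H2-DMa had a log2 ratio of 0.69 (0.53 to 0.85), with H2-DMb1 at 96.5 and 173 CPM (0.84, 0.62 to 1.07) and Ciita at 16.4 and 31.4 CPM (0.94, 0.40 to 1.54), beside 0.19 for H2-Aa. In cluster 6, H2-DMb1 was at 67.9 and 149 CPM (1.13, 0.91 to 1.35) and H2-DMb2 at 25.8 and 57.4 CPM (1.15, 0.80 to 1.52), beside 0.36 for H2-Aa. Ciita in cluster 6 was at 22.95 and 34.7 CPM (0.60, 0.20 to 1.005), an interval that holds the ratios of the chains. Without cluster 0 the macrophage gate had a summed log2 ratio of 0.39 (10513 and 13771 CPM), and 1 of the 8 members, H2-DMb1 at 1.04 (83.7 and 172 CPM), was past 2-fold, where 7.66% of the genes then tested were. This alternative was chosen after the clusters were seen.

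The monocyte gate also held clusters with ratios below that of the whole gate. Its main anti-CD3L1 cluster, led by Ccl24, Inhba and Met (cluster 1), held 46.1% of anti-CD3L1 and 5.69% of control IgG monocytes and had summed levels of 8008 and 10460 CPM, a log2 ratio of 0.39 (0.35 to 0.42). In the cluster led by Ccr2, Fos and Tppp3 (cluster 10) the levels were 4573 and 8451 CPM, a ratio of 0.89 (0.84 to 0.93), with Ciita at 29.4 and 70.3 CPM. In the interferon cluster 11 they were 7026 and 9217 CPM (0.39), and in the small cluster 8, led by Thbs1 and Plcb1, 1151 CPM in 34 cells and 3889 CPM in 33 cells (1.76). Of all cells of cluster 8, 52.9% were neutrophil-gated. The monocyte-gated cells of cluster 14 gave 1667 CPM in 18 cells and 5453 CPM in 31 cells (1.71). The gate also held cells of cluster 7, 5 under control IgG and 184 under anti-CD3L1. From cluster 9, led by Ccl17 and Ccr7, with 52.5% of its cells dendritic-gated, it held 5 and 114. Control IgG cells there were too few for a ratio. The ratios of the gate with and without cluster 0 include these cells, and their part was not tested. Without cluster 0 the summed ratio of the gate was 0.91 (5564 and 10477 CPM) in place of 1.76. The 4 members past 2-fold were then H2-Ab1 (1.07), H2-DMb1 (1.28), Ciita (1.46) and H2-DMb2 (1.57), where 11.4% of the genes tested were.

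**Figure D4:**
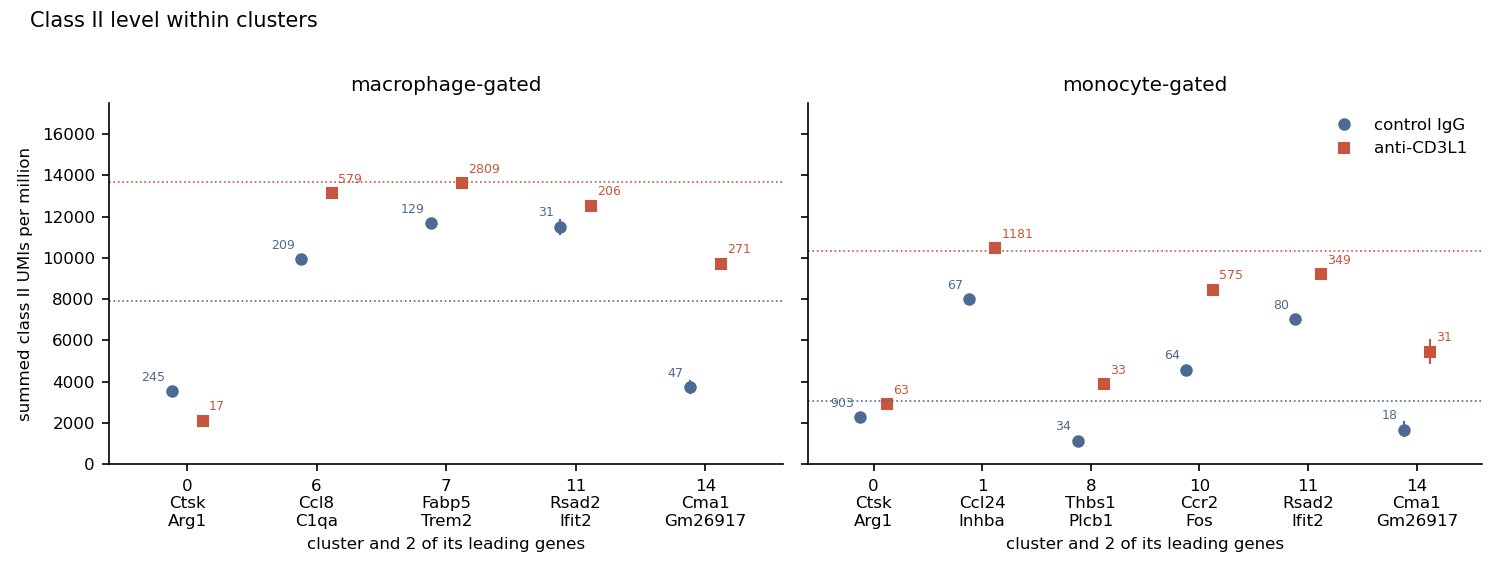
Summed level of the 8 members (vertical, CPM) in each cluster of the macrophage-gated and monocyte-gated cells with at least 15 cells per library, control IgG as circles and anti-CD3L1 as squares, bars exact Poisson 95% intervals, small numbers the cells, dotted lines the whole gate. Cluster 0, with 245 and 903 control IgG cells, lies at 2114 to 3554 CPM, and in clusters 1, 6, 7 and 11 the symbols of the libraries lie nearer to each other than the dotted lines of their gate.

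The balance of H2-DMb1 and H2-DMb2 differed between classes of cells and was close between the libraries in macrophages, monocytes and cDC1. H2-DMb1 and H2-DMb2 encode alternative beta chains of H2-DM. Their longest coding transcripts are 93.7% identical over 1220 aligned bases but 62.0% identical over the aligned part of their last 400 bases, and 15.9% of all 90-base stretches of H2-DMb1 also occur in H2-DMb2, so some reads could have been set aside or misassigned. Of the UMIs of both genes, H2-DMb2 made up 27.8% (24.9 to 30.9) in control IgG macrophages and 27.0% (26.1 to 27.8) in anti-CD3L1 macrophages. In monocytes it made up 26.6% and 27.5%, and in cDC1 28.7% and 28.1%.

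Mature dendritic cells and B cells stood apart. In mature dendritic cells H2-DMb2 made up 54.5% (40.6 to 68.0) of 55 UMIs under control IgG and 53.7% (48.8 to 58.5) of 421 UMIs under anti-CD3L1. In B cells it made up 81.2% (54.4 to 95.9) of 16 UMIs and 79.2% (68.0 to 87.8) of 72 UMIs. The intervals of both classes lay above those of macrophages, monocytes and cDC1 in the same library. Mature dendritic cells also had the lowest H2-DM level beside their chains, 3.52 and 3.69 UMIs of the 3 H2-DM genes per 100 UMIs of H2-Aa, H2-Ab1 and H2-Eb1, against 7.43 and 6.41 in cDC1 and 7.85 and 8.48 in cDC2. H2-DMa alone stood at 632.2 and 473.1 CPM in cDC1, 683.3 and 748.7 CPM in cDC2 and 211.0 and 260.7 CPM in mature dendritic cells, and H2-DMb1 at 484.8 and 370.0, 645.9 and 519.0, and 128.6 and 115.5 CPM.

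**Figure D5:**
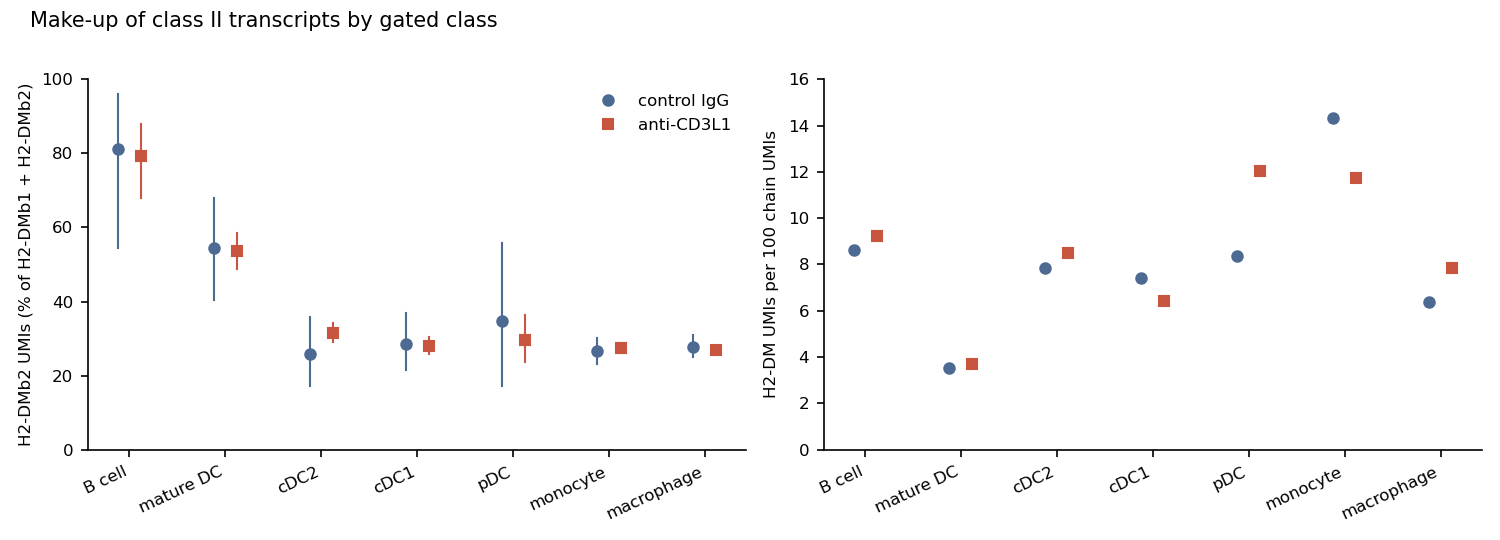
Left, UMIs of H2-DMb2 as a percent of those of H2-DMb1 and H2-DMb2 together, with exact binomial 95% intervals; right, UMIs of H2-DMa, H2-DMb1 and H2-DMb2 per 100 UMIs of H2-Aa, H2-Ab1 and H2-Eb1, without intervals; both by gated class, control IgG as circles and anti-CD3L1 as squares. B cells (81.2% and 79.2%) and mature dendritic cells (54.5% and 53.7%) lie above the other classes on the left, and mature dendritic cells are lowest on the right.

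In monocytes the 3 H2-DM genes stood at 14.3 UMIs per 100 chain UMIs under control IgG and 11.7 under anti-CD3L1. In macrophages they stood at 6.395 and 7.85. Over the whole gates the measure was thus lower under anti-CD3L1 in monocytes and higher in macrophages. It was not taken within clusters, where the order of H2-DMa and the chains varied. Among monocytes of cluster 1, H2-DMa had a log2 ratio of 0.59 (0.39 to 0.78), beside 0.43 (0.35 to 0.51) for H2-Aa. Among those of cluster 10, H2-DMa had 0.83, beside 0.99 for H2-Aa. Ciita per 1000 chain UMIs was 4.26 and 5.12 in macrophages, 7.97 and 10.8 in monocytes, and 12.7 and 12.8 in cDC1. The Cd74 count per 100 chain UMIs was 90.1 and 85.4 in macrophages, 105 and 81.3 in monocytes and 61.6 and 68.7 in cDC1.

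In pDC, B cells and ILC2 the changes were mixed or rested on few cells. The summed level of pDC was lower under anti-CD3L1 (6234 and 5364 CPM, log2 ratio -0.22, -0.29 to -0.15), with Cd74 at 3167 and 2323 CPM, while Ciita was at 20.5 and 50.2 CPM from 6 and 109 UMIs. In B cells Cd74 was at 4761 and 6053 CPM and H2-Aa at 2683 and 2676 CPM. In ILC2, H2-Aa was at 208.1 and 634.6 CPM from 40 and 531 UMIs, and 0 UMIs of Ciita and of H2-DMb2 were counted under control IgG. The interval of each of these 0 counts reaches 19.2 CPM, and 3 counts would stand at 15.6 CPM.

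The classes taken as background moved as well. Their summed log2 ratios were 1.05 in NK cells and 2.495 in neutrophils, with 1.40 in ILC2 and 2.17 in near-empty barcodes. All of these were larger than the 0.79 of the macrophage gate. In NK cells 5 of the 8 members were past 2-fold, where 7.52% of 11222 genes were, with H2-Aa at 45.8 and 130 CPM. Among the 5, H2-DMb2 had 0 and 25 UMIs, and at 3 counts for control IgG (1.65 CPM against 2.995 CPM) it would not be past 2-fold. In neutrophils all 8 were, where 30.8% of 12039 genes were, with H2-Aa at 80.5 and 529 CPM and Ciita at 0.949 and 16.8 CPM. These levels lie below the near-empty barcodes of the same library for 8 of 8 members in both classes, at 474.8 and 2359 CPM for H2-Aa and 5.70 and 29.0 CPM for Ciita. Subtracting the NK-gated level from the macrophage gate left a summed log2 ratio of 0.78 in place of 0.79. The NK level (340.1 and 705.9 CPM) is small beside the macrophage level (7894 and 13689 CPM), so this subtraction could move the ratio little. The near-empty level was not subtracted, and the part of free RNA was not tested.

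A list of 38 symbols for other genes of the class II pathway, some of them alternative names of the same gene, gave 35 that were measured. In macrophages 30 of the 35 stayed within 2-fold, 3 were past 2-fold upward and 2 downward, with a median log2 ratio of 0.09. Over all genes tested in these cells 7.74% were past 2-fold upward and 4.30% downward, so the counts of the list are near those of any gene. The only gene of the list at 50 CPM or more and past 2-fold was Cxcr4, a chemokine receptor that binds MIF together with Cd74, at 140.1 CPM under control IgG and 57.5 CPM under anti-CD3L1 (log2 ratio -1.29, -1.38 to -1.19). The other genes named in this paragraph were chosen after their values were seen. The genes past 2-fold upward were H2-Oa, H2-Ob and H2-Eb2, further class II chains, at no more than 1.89 CPM in either library, and the second gene downward was Cxcr2, itself a marker of the neutrophil gate.

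None of the 7 promoter factors and none of the 8 inputs to Ciita was past 2-fold in macrophages. Over all genes tested there 7.74% were past 2-fold upward and 4.30% downward, and a count of none is near these shares. The nearest of them to 2-fold, Irf1, an interferon-induced factor, was at 97.8 and 183 CPM (log2 ratio 0.91, 0.81 to 1.01). In monocytes Irf1 (117.7 and 244.2 CPM, 1.05) and Irf8 (102.5 and 222.4 CPM, 1.12) were past 2-fold, 2 of the 8 inputs, with none of the 7 promoter factors, where 11.5% of all genes tested were and the median gene stood at 0.26. Jak2, a kinase of the interferon gamma receptor and another input, was lower, at 311.9 and 191.0 CPM (-0.71, -0.77 to -0.65). The 9 genes of endosomal processing had a median log2 ratio of 0.53 in macrophages, with the proteases Ctsb at 2416 and 3955 CPM and Ctss at 1883 and 2728 CPM, and of 0.28 in monocytes. Others of the 9 were lower, the protease Lgmn (1073 and 878.8 CPM, -0.29) and Sppl2a (139.4 and 119.0 CPM, -0.23) in macrophages, and Ctsl (621.5 and 521.5 CPM, -0.25) and Sppl2a (219.1 and 185.2 CPM, -0.24) in monocytes. No list gene had its highest anti-CD3L1 level in the cDC2 gate, where the members had theirs. These genes were named after their values were seen.

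Of 7 class I genes, the set nearest in function, none was past 2-fold in either gate, with median log2 ratios of 0.30 in macrophages and 0.35 in monocytes. Over all genes tested, 7.74% in macrophages and 11.5% in monocytes were past 2-fold upward, and 4.30% and 2.93% downward. A count of none among 7 genes is near these shares. H2-K1, a class I heavy chain, was at 1169 and 1441 CPM in macrophages, and B2m, the light chain, at 2078 and 1956 CPM. Nlrc5, the class I counterpart of Ciita, was at 31.0 and 50.1 CPM (log2 ratio 0.69, 0.52 to 0.87). Whether class I and class II differed was not tested.

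Over 14 pairs of class and library with at least 50 cells, the genes most like the mean of the members were Ildr1, Ensa, Ppfibp2, Itprid2, Dapk1, Prcp, Cd86 and Ryr1, with Pearson correlations of log2(CPM + 1) from 0.922 to 0.954 among 5880 genes. The members themselves had correlations of 0.964 to 0.996 with that mean, which includes them. Ildr1 was at 81.9 CPM in cDC1 and 25.4 CPM in monocytes under anti-CD3L1 and at 8.99 CPM in monocytes under control IgG. In macrophages Ildr1 was lower under anti-CD3L1, at 24.9 CPM against 31.0 CPM under control IgG, unlike the members. Cd86, a costimulatory molecule for T cells, was at 354.2 and 312.6 CPM in macrophages and 294.2 and 498.0 CPM in monocytes, higher under anti-CD3L1 in monocytes, as the members were, and lower in macrophages. The points share their libraries and differ in depth, and the correlations are descriptions.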

How the data were processed

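The authors made the deposited counts, whole UMIs for each gene in every barcode, with Cell Ranger 7.1.0 (Seurat 5.1.0 and the build GRCm39 are also named in the submitters' processing notes); 32158 of 32285 gene identifiers were found in GENCODE M21 (GRCm38), whose coordinates are printed. A deposited table of fold changes and p-values for macrophage genes holds the authors' own comparison and was not used. No other sample's columns were present.

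Barcodes with at least 500 UMIs, over 200 and under 6000 genes and under 5% mitochondrial UMIs were kept. Each class score was the mean of its markers (log of depth-scaled counts, set to 1 at the 99th percentile); a cell was gated with at least 3 markers detected and a margin of 0.05 to the next class. Mixed cells stayed in, and no doublet caller was run. Clusters came from scanpy 1.11.5 (2000 variable genes without the members, 30 components, 20 neighbors, Leiden resolution 0.8) without integration. For each library, a class was the sum of its cells' UMIs. Intervals are exact Poisson for CPM and exact binomial for ratios and shares, at 95%; a count of 0 is given the level of 3 counts. Genes with at least 20 UMIs over both libraries were compared for a 2-fold difference. Shares of cells used cells thinned to 1000 UMIs, and likeness log2(CPM + 1). Python 3.11.15, numpy 2.4.6, scipy 1.17.1 and pandas 2.3.3 were used, with edgeR 4.0.16 for TMM factors only. The code for the ratio and its interval was checked on independent Poisson counts drawn from macrophage-gated means. Those counts held no variation between cells, tumors or libraries, so the check does not bear on such variation.

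Named genes are the 8 members, list genes at 50 CPM or more and past 2-fold in macrophages, list genes highest where the members are, and the 8 genes most like the members. The members and lists were chosen with earlier results of these data known. Alternatives changed the filters, gates, scaling, weights of cells, subtraction of the NK level and thinned depth.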

Additional observations from a re-analysis of the deposited data

Results flagged for a closer look

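The 8 members together were higher under anti-CD3L1 in macrophage and monocyte gates (log2 ratios 0.79 and 1.76) and lower in the cDC1 gate (-0.15), the cDC2 gate (-0.12) and the pDC gate (-0.22). What drew attention is the opposite direction of these sums under the same treatment. Single members did not all follow. In the pDC gate Cd74 (-0.45), H2-Aa (-0.33) and H2-DMb2 were lower, and H2-DMa (0.62), Ciita (1.29), H2-Ab1, H2-Eb1 and H2-DMb1 higher. In the cDC2 gate H2-Ab1, H2-DMa, H2-DMb2 and Ciita were higher, though not beyond counting error, and the other members lower. Every member was lower in the cDC1 gate. The remaining dendritic gate, mature DC, had a ratio of 0.0044 (-0.039 to 0.048), and the ratio of the 3 dendritic gates pooled turned from -0.06 to 0.071 when each cell was weighted equally. The difference between the gates was not tested, each group is 1 library, and the control IgG values of the cDC1, cDC2 and pDC gates come from 12, 7 and 25 cells. In near-empty barcodes, which no comparison of cells used, the 8 members summed to 10810 CPM under anti-CD3L1 against 2406 CPM under control IgG.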

How the results depend on the processing

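The summed log2 ratio was above 0 under all 12 alternatives in macrophages (0.37 to 0.99) and in monocytes (0.43 to 1.83), as were all 96 values of single members in each gate. For macrophages, whose value is 0.79, it was 0.99 with mixed cells (at least 3 markers of another lineage) left out. Leaving these out removed 601 of the 704 control IgG and 1235 of the 4424 anti-CD3L1 macrophages. The ratio was 0.84 with 1 more marker, 0.37 with clusters (6 and 7) in place of gates and 0.83 with TMM. It was 0.68 with each cell weighted equally and 0.78 with the NK level subtracted. Chosen after seeing the data, it was 0.39 without cluster 0 and 0.44 as a weighted mean of within-cluster ratios. For monocytes (1.76) the same order gave 0.84 with mixed cells left out and 1.69 with clusters (0, 1, 10 and 11). It was 1.54 with TMM and 1.61 with equal weights. Then came 1.83 with the NK level subtracted, 0.91 without cluster 0 and 0.43 within clusters, and median-of-ratios scaling gave 1.504. The set of monocyte clusters includes cluster 0, with 1425 control IgG and 95 anti-CD3L1 cells. The 1.69 therefore keeps the unlike share of cluster 0 between the libraries. The within-cluster mean weights each cluster by its control IgG cells and leaves out clusters with few cells in either library. In monocytes cluster 0, with 903 control IgG and 63 anti-CD3L1 cells and a ratio of 0.35, carried most of the weight. In macrophages cluster 0, with 17 anti-CD3L1 cells, was left out, so the means of these gates are not the same measure. The macrophage mean also took in cluster 14, with 47 control IgG cells and a ratio of 1.38, above those of clusters 6, 7 and 11. For dendritic gates the summed log2 ratio (-0.06) was -0.034 with mixed cells left out, -0.12 with 1 more marker and -0.15 with median-of-ratios scaling. Leaving out mixed cells removed 32 of the 34 control IgG and 160 of the 513 anti-CD3L1 dendritic-gated cells. All 7 control IgG cDC2 cells were among them, so the -0.034 rests on too few control IgG cells to check the main value. The summed ratio turned to 0.071 with each cell weighted equally, as H2-Ab1 did to 0.083, and the cause was not tested. Levels in CPM for control IgG and anti-CD3L1 were 7815 and 13974 (1 more marker), 10480 and 13506 (clusters) and 8379 and 13396 (equal weights) in macrophages. In monocytes they were 3561 and 11504 (clusters) and 3157 and 9652 (equal weights), with 10372 under anti-CD3L1 for 1 more marker. In dendritic gates they were 26692 and 28035 (equal weights), with 27049 under anti-CD3L1 for 1 more marker. The H2-Aa shares at 500 UMIs were 30.3% and 53.9% in macrophages and 14.1% and 43.5% in monocytes, and at 2000 UMIs 46.6% and 76.5%, and 21.5% and 62.4%. The genes at least 2-fold higher, 1126 in macrophages and 1521 in monocytes, numbered 473 and 619 with at least 100 UMIs and 5057 and 5135 with at least 1 UMI, 982 in monocytes with median-of-ratios scaling, and 1103 and 1430 without cluster 0. With 1 library per group no library could be left out. No paired analysis was possible because each group has 1 library. The small number of control IgG cells limits the dendritic (34), pDC (25), ILC2 (24), B cell (7) and fibroblast (2) values.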
